A study of Rattus norvegicus with 21 samples.

Results

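Transthyretin (Ttr, ENSRNOG00000016275) is 1 of the 30560 gene IDs in the deposited table, and its row was followed through the libraries of rat hippocampus and cerebral cortex as a sign of choroid plexus in the dissected piece. The table gives IDs without gene names, so the pairing of this ID with Ttr was taken as given. The animals were 12 male SD rats of wild-type genotype, 4 weeks old at the start. A hypobaric chamber, in which air pressure and oxygen fall as at high altitude, took 8 of them through repeated exposures, and 1 of the 8 died. Each of 6 cycles, spaced 3 days apart, reached a simulated 28000 ft and held it for 5 min. Controls stayed in normal air, and exposed rats were killed 24 h or 48 h after the last cycle. For hippocampus there were 4 control, 3 24 h and 3 48 h libraries, and for cortex the numbers were the same. A further library, titled as hippocampus at 24 h but labelled cortex, entered no comparison. All groups share strain, sex and genotype, and no transgene or drug is named.

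Transthyretin is a secreted carrier of thyroid hormone and, bound to retinol-binding protein, of retinol. In the adult brain its mRNA is made chiefly by the epithelial cells of the choroid plexus, the tissue in the ventricles that secretes cerebrospinal fluid. Choroid plexus of the lateral ventricle is attached along the edge of the hippocampus, while the cortical sheet carries none. A piece of hippocampus can therefore come with or without some plexus, depending on the dissection. In bulk tissue, fewer cells of a type and less RNA per cell cannot be told apart.

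Libraries held 11214566 to 19304803 reads in genes, apart from hippocampus control 1 with 4654096. Ttr was covered by 6 to 60631 reads per library with a group. All Ttr levels below are normalized read counts, that is, reads divided by the size factor of the library. The label of Ttr as a choroid plexus gene could not be set against other genes of that tissue. Of the 22 choroid plexus symbols chosen for the purpose, 0 could be paired with an ID from the gene reference at hand. The 22 include Ttr, whose ID was taken as given. The other 8 lists, for ependyma, meninges, blood, neurons of 4 brain regions and the handling of thyroid hormone and retinol, met the same limit.

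Ttr varied widely between libraries of the same group. One library, hippocampus 48 h replicate 3, stood far above all others, and a small number of libraries in each tissue stood above the rest. In control hippocampus the Ttr level was 932.1, 178.4, 30.5 and 19.1 in replicates 1 to 4. Replicate 1 was 48.9 times replicate 4, so untreated rats already spanned a wide range. Hippocampus at 24 h had 3961, 113 and 193 in replicates 2, 3 and 4. Hippocampus at 48 h had 739, 243 and 67787 in replicates 1, 2 and 3. In both exposed groups 1 library was high and the other two lay within the range of the controls.

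**Figure D1:**
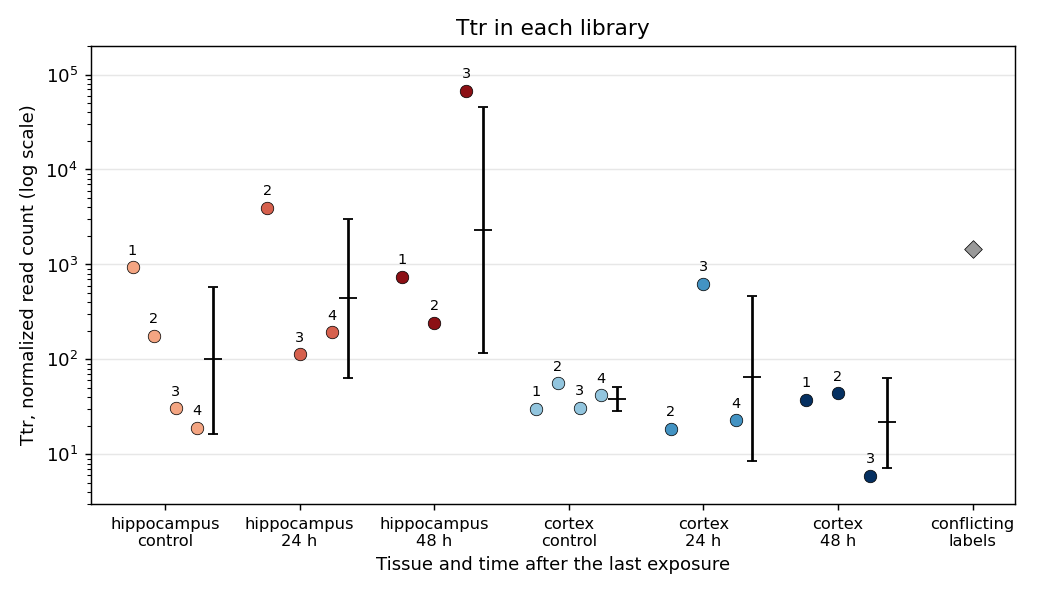
Normalized read count of Ttr in each library on a log axis, by tissue and time after the last exposure, with the replicate number above each point. Black bars are the mean ± SD of log2(value + 1) per group, drawn back on the scale of the axis, and the grey diamond is the library with conflicting tissue labels. Hippocampus 48 h replicate 3 lies at 67787, and the cortex libraries lie between 5.95 and 56.2 apart from cortex 24 h replicate 3 at 628.

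Cortex was low and even in controls, with Ttr levels of 30, 56.2, 30.9 and 41.9 in replicates 1 to 4. Their mean was 39.8 ± 12.2 (SD, n = 4), the tightest group of the study. At 24 h the cortex levels were 18.5, 628 and 22.9 in replicates 2, 3 and 4. Replicate 3 lay above every control, and the other two lay below every control. At 48 h they were 37.6, 44.1 and 5.95 in replicates 1, 2 and 3. The lowest Ttr level of the study, 6 reads, was thus in cortex 48 h replicate 3, and the highest was in the hippocampus library of the same time and number. Whether same-numbered libraries of both tissues come from 1 rat is not stated in the labels.

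In order of level, hippocampus 48 h replicate 3 was followed by hippocampus 24 h replicate 2, a step of 17.1-fold, and this library by hippocampus control 1, a step of 4.25-fold. The next in order were hippocampus 48 h replicate 1, cortex 24 h replicate 3 and hippocampus 48 h replicate 2. From 113 to 56.2 lay the gap between hippocampus 24 h replicate 3 and cortex control 2, the cortex library with the second highest level. Below that gap the order mixed both tissues, with hippocampus controls 3 and 4 among 9 cortex libraries. Thus 8 of 10 hippocampus libraries and 1 of 10 cortex libraries had a Ttr level above 100, with control and exposed libraries pooled. This limit lies within the gap just named, so the counts restate the order and are no test. The median was 218 over the 10 hippocampus libraries and 34.3 over the 10 cortex libraries.

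Seen against the rest of the transcriptome, Ttr ranked 12th by normalized read count among all IDs in hippocampus 48 h replicate 3. Its reads made up 0.541% of that library (95% Clopper-Pearson interval 0.536 to 0.545, counting error only). In hippocampus 24 h replicate 2 it ranked 421, with 0.0312% of reads (interval 0.0302 to 0.0322). In cortex 48 h replicate 3 it ranked 15156. The SD of Ttr within groups was 3.2 on the log2(value + 1) scale in hippocampus, against a median of 0.531 over 15028 IDs, and 17 IDs had a larger one. In cortex it was 1.72, against a median of 0.319 over 14783 IDs, and 147 IDs had a larger one. This spread sets the precision of every comparison that follows.

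The effect of exposure on each tissue was tested for Ttr within a fit over all IDs. In hippocampus at 48 h the mean of log2(value + 1) was 11.17 ± 4.3 (SD, n = 3), against 6.66 ± 2.53 (SD, n = 4) in controls. The log2 change was 4.51 (SE 2.04, 95% interval -0.04 to 9.05), with larger changes in size for 2 of 15028 IDs, and it did not pass the threshold (limma adjusted p = 0.928). Exposed and control libraries overlapped, and the exact two-sided permutation test over 35 arrangements gave p = 0.143. Without hippocampus 48 h replicate 3 the log2 change was 2.07. At 24 h the mean was 8.79 ± 2.76 (SD, n = 3), with a log2 change of 2.13 (SE 2.04, interval -2.42 to 6.68, limma adjusted p = 0.851, exact permutation p = 0.314). Without hippocampus 24 h replicate 2 it was 0.55. Hippocampus at 48 h against 24 h differed by a log2 value of 2.38 (SE 2.18, limma adjusted p = 1), and by -0.06 without hippocampus 48 h replicate 3. The 24 h and 48 h comparisons share their controls.

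In cortex at 24 h the mean of log2(value + 1) was 6.06 ± 2.81 (SD, n = 3), against 5.3 ± 0.42 (SD, n = 4) in controls. The log2 change was 0.75 (SE 1.12, interval -1.74 to 3.25, limma adjusted p = 0.881, exact permutation p = 0.886), and without cortex 24 h replicate 3 it was -0.87. At 48 h the mean was 4.52 ± 1.5 (SD, n = 3), a log2 change of -0.78 (SE 1.12, interval -3.28 to 1.71, limma adjusted p = 0.899, exact permutation p = 0.429). Without cortex 48 h replicate 3 it was 0.08. Cortex at 48 h against 24 h differed by -1.53 (SE 1.2, limma adjusted p = 0.666), and by 0.09 without cortex 24 h replicate 3. A single library thus decided the sign in all 3 cortex comparisons. No exposure comparison in either tissue called Ttr, and limma called 0% of IDs in each of these 6. The number of IDs with an unadjusted p under 0.05 in limma was 1177 in cortex at 24 h, 515 at 48 h and 1675 between the times, and in hippocampus 320, 241 and 25. edgeR also called 0 in each, and DESeq2 called 41, 2 and 145 in cortex and 2, 3 and 1 in hippocampus. DESeq2 gave Ttr no adjusted p.

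Hippocampus against cortex was compared at each time. At 48 h the hippocampus levels of 739, 243 and 67787 lay above the cortex levels of 37.6, 44.1 and 5.95 without overlap, as they did for 20.5% of 15017 IDs in this direction. The log2 difference was 6.65 (SE 1.89, interval 2.67 to 10.63), with larger differences in size for 3 IDs, and Ttr passed the threshold (limma adjusted p = 0.0495), as did 5.29% of IDs. With 3 libraries against 3 the exact permutation test gave p = 0.1, the smallest it can give. Leaving out any 1 of the 6 libraries ended the call, with adjusted p from 0.0596 to 0.19 in limma. The log2 difference was 4.21 without hippocampus 48 h replicate 3. The call was also lost with the replicate number as a block (limma adjusted p = 0.0679), with no filter, with no intensity trend, with a pseudocount of 0.1 and with the 48 h libraries alone in the fit.

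At 24 h the levels overlapped through cortex 24 h replicate 3, and the log2 difference was 2.74 (SE 1.89, interval -1.24 to 6.72, limma adjusted p = 0.544, exact permutation p = 0.3). limma called 1.8% of IDs there. Without that library the difference was 4.36, and without hippocampus 24 h replicate 2 it was 1.16. In controls the log2 difference was 1.36 (SE 1.64, interval -2.09 to 4.81, limma adjusted p = 0.643, exact permutation p = 0.4), with 2.9% of IDs called. Hippocampus controls 3 and 4 lay within or below the cortex controls, and the difference was 0.29 without hippocampus control 1. After adjustment over the 9 permutation tests, every p was at least 0.643. The response to exposure was also compared between the tissues. The hippocampus response exceeded that of cortex by a log2 value of 1.38 at 24 h (SE 2.5, limma adjusted p = 0.898) and 5.29 at 48 h (SE 2.5, interval 0.02 to 10.55, limma adjusted p = 0.998). limma, edgeR and DESeq2 called 0% of IDs for either difference, and limma had 522 and 198 at an unadjusted p under 0.05.

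**Figure D2:**
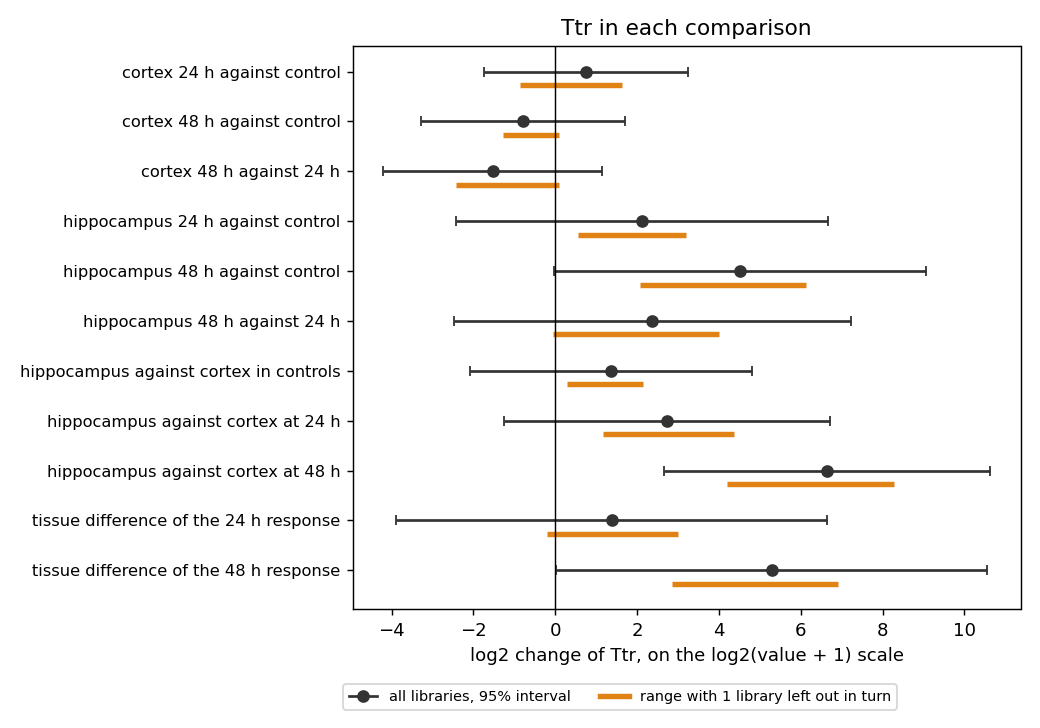
Log2 change of Ttr on the log2(value + 1) scale in each comparison, with the 95% interval of limma in black. Orange bars span the values with each library of the comparison left out in turn. The interval excludes 0 for hippocampus against cortex at 48 h and for the tissue difference of the 48 h response, where Ttr did not pass after adjustment over all IDs.

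The IDs whose pattern was most like that of Ttr were sought by Pearson's r of log2(value + 1) over the 20 libraries, among 12373 other IDs with a mean of at least 50. They were chosen for this likeness, and r is a description across libraries of unequal depth. ENSRNOG00000019902 came first with r = 0.91. It had 890 in hippocampus 48 h replicate 3, 97 in hippocampus 24 h replicate 2 and 1.98 to 22 in the other 18 libraries. Without hippocampus 48 h replicate 3, its r was 0.83 over 19 libraries, and it was 0.88 over 10 hippocampus and 0.87 over 10 cortex libraries. ENSRNOG00000001092 followed with r = 0.87. It had 1907 and 127 in the same pair of libraries, then 64.7 in hippocampus control 1 and 33 in hippocampus 48 h replicate 1. Over the 10 cortex libraries, where it lay between 1.7 and 8.98, its r was 0.23. Both IDs passed the minimum mean through hippocampus 48 h replicate 3, with means of 14 and 18.7 over the other 19 libraries. In all, 4 IDs had r above 0.8. That number was 1 without hippocampus 48 h replicate 3, 0 by Spearman's rho, 31 over the 10 hippocampus libraries and 150 over the 10 cortex libraries. Below -0.8 there were 2 IDs over all 20 libraries, 12 over hippocampus and 314 over cortex. Within each tissue alone other IDs had a higher r than ENSRNOG00000019902, up to 0.98 in hippocampus and 0.94 in cortex.

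The IDs most opposite to Ttr were ENSRNOG00000016412 (r = -0.83) and ENSRNOG00000062002 (r = -0.81). The first had 233 in hippocampus 48 h replicate 3 and 275 in hippocampus 24 h replicate 2, its lowest values. In cortex it had 488 in 24 h replicate 3, where Ttr was high, and 1150 to 1937 in the other 9 libraries. The second had 255 in hippocampus 48 h replicate 3 and 359 in cortex 24 h replicate 3, the lowest value of each tissue. Both IDs were chosen for this opposition, so their low values in libraries with high Ttr are no result. In hippocampus 48 h replicate 1, with a Ttr level of 739, they had 1000 and 1014. The files do not pair these 4 IDs with names.

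Ttr was not alone in standing out in hippocampus 48 h replicate 3. There, 23 IDs with a value of at least 200, Ttr included, were at least 4-fold higher than in every other library with a group, 0.272% of the 8457 IDs at that level. The same count was 605 in hippocampus control 1, the library with few reads, 45 in cortex control 3, 22 in hippocampus control 2, 6 in hippocampus 24 h replicate 2 and 0 to 2 in the other 15. These 23 were chosen for hippocampus 48 h replicate 3, so their values in that library are no result. Of the 22 besides Ttr, 17 had their next highest value in hippocampus 24 h replicate 2, which is also where Ttr was next highest. Among the 8434 other IDs of at least 200 in hippocampus 48 h replicate 3, 97 (1.15%) were highest there when that library was set aside. Those were not chosen for a peak, so the shares are not of like sets. The count of 17 is a description of IDs that reached the minimum of 200 through hippocampus 48 h replicate 3. The median of the 22 was 91.1 in hippocampus 24 h replicate 2.

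**Figure D3:**
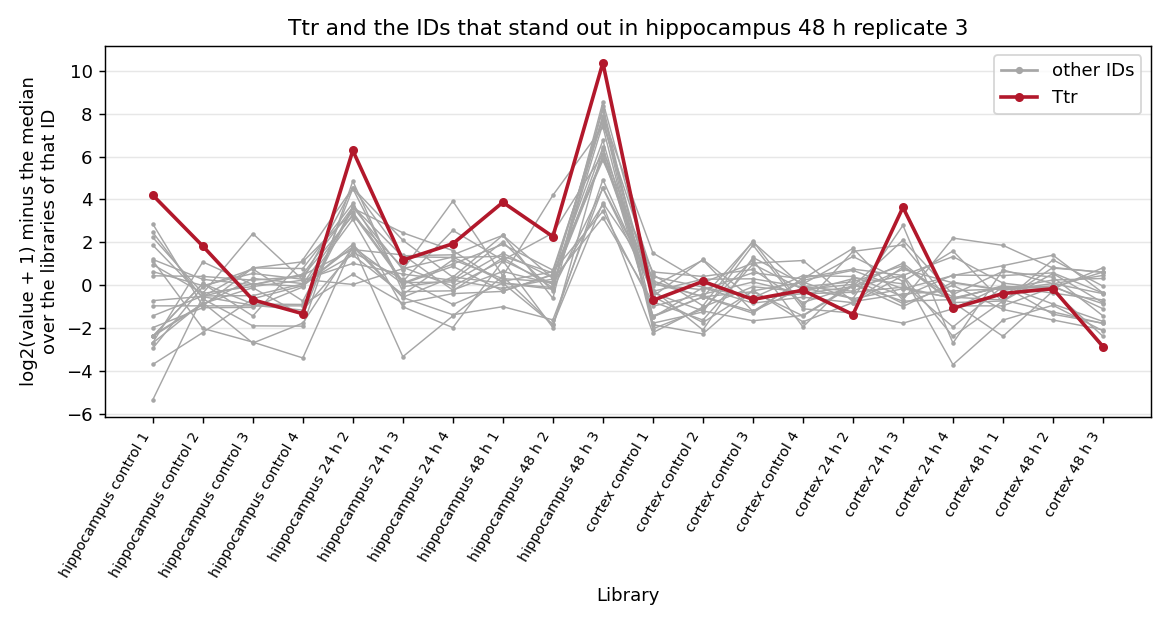
Each line is an ID, as log2(value + 1) minus its median over the 20 libraries, with Ttr in red and in grey the 22 other IDs that were at least 4-fold higher in hippocampus 48 h replicate 3 than elsewhere. The 22 were chosen for hippocampus 48 h replicate 3 and no share over all IDs was taken, so the numbers that follow are a description. Of the 22 grey lines, 12 reach at least 2 above their own median at hippocampus 24 h replicate 2. At hippocampus control 1 and hippocampus 48 h replicate 1, 3 do so. At hippocampus 24 h replicates 3 and 4 and hippocampus 48 h replicate 2, 2 do so. The number is also 2 at cortex 24 h replicate 3, where the red line is high, and at cortex control 3, where it lies below its median.

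The sum of the 22 IDs was not high in every library with a high Ttr level. Their values summed to 22414 in hippocampus 48 h replicate 3 and to 2150 in hippocampus 24 h replicate 2, and to 205 to 600 in the other 18 libraries. In those 18 the Ttr level was at most 932, against 67787 in hippocampus 48 h replicate 3. Sums in this low range therefore cannot show whether the IDs follow Ttr there. In cortex 24 h replicate 3, where the Ttr level was 628, the sum was 366, within the 205 to 435 of the other cortex libraries. In hippocampus control 1, with a Ttr level of 932, the sum was 539 and 12 of the 22 were at 0. Each read counts for 4.32 in that shallow library, so single reads decide such low values there. In hippocampus 48 h replicate 1, with a Ttr level of 739, the sum was 532, and the median of the 22 IDs was 20.9. Higher medians were 739 in hippocampus 48 h replicate 3 and 91.1 in hippocampus 24 h replicate 2. The median was 0 in hippocampus control 1 and 4.85 to 12 in the other 16 libraries.

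The tissue character of a library was set beside its Ttr level. The measure was the place of each library between the cortex median, at 0, and the hippocampus median, at 1. It was the median over 306 to 372 IDs at least 4-fold apart between the tissues, chosen without Ttr and without the library itself. Hippocampus 48 h replicate 3 lay at 0.85, near its own end, among the other hippocampus libraries. Hippocampus 24 h replicate 2, with the second highest Ttr level, lay at 0.46, and hippocampus control 2 at 0.3. The remaining hippocampus libraries lay between 0.84 and 1.24. Cortex 24 h replicate 3, with the high Ttr level of 628, lay at 0.26, off the cortex end. Cortex control 3 lay further off, at 0.42, with a Ttr level of 30.9, near the low end of the control cortex range of 30 to 56.2. The other 8 cortex libraries lay between -0.1 and 0.11. The part of the dissection in these Ttr levels was not tested.

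**Figure D4:**
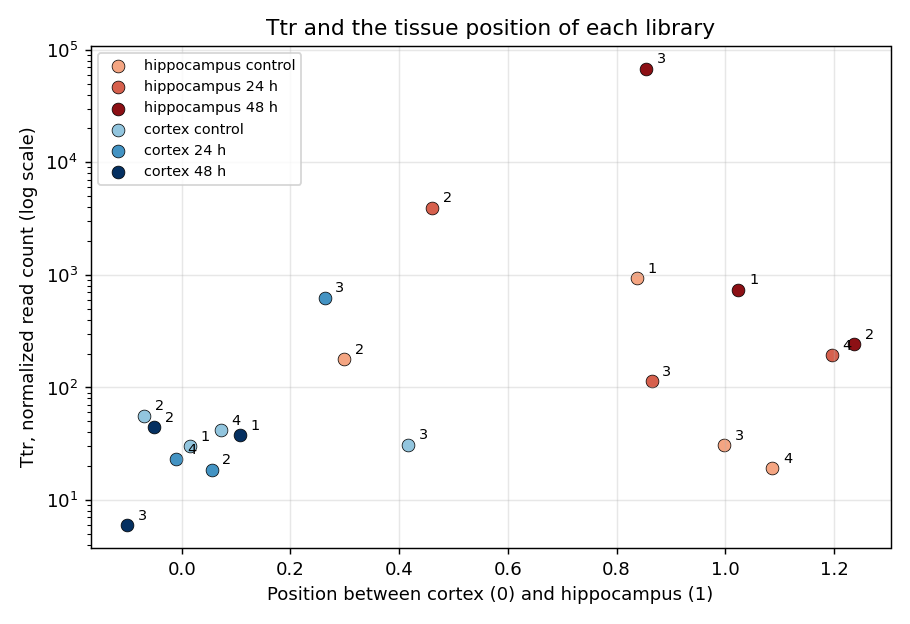
Position of each library between cortex (0) and hippocampus (1) against its normalized read count of Ttr on a log axis, with the replicate number beside each point and colours for tissue and time. The 8 cortex libraries between -0.1 and 0.11 have Ttr levels of 5.95 to 56.2, and the highest levels lie at 0.85 and 0.46.

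The library with conflicting tissue labels had a Ttr level of 1456, from 1409 reads. Beside the 20 others it lay below hippocampus 24 h replicate 2 and above hippocampus control 1. Its 22 IDs summed to 902, above every library but hippocampus 48 h replicate 3 and hippocampus 24 h replicate 2, and none was at 0. On the tissue scale it lay at 0.81.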

How the data were processed

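TRIzol was used to extract total RNA from 50 mg of tissue, and libraries came from a stranded mRNA kit, according to the labels' protocols. The submitters' processing notes list fastp (0.20.0), HISAT2 (2.1.0) and featureCounts (2.0.1). Not given in the sources used here are the genome build, the annotation, the strand setting and the filter mentioned in the column names. The deposited table holds a signal for each gene in each library, which is its read count over the size factor of that library. All 21 columns matched a sample by title. Dividing a column by its smallest value above 0 gave whole reads, within 0.001, for 100% of values in every column.

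Log2(value + 1) was fitted by limma (version 3.58.1, R 4.3.3, intensity trend, two-sided, Benjamini-Hochberg adjustment over all IDs, threshold 0.05) on IDs with a mean of at least 10. Exposure was tested within a tissue, and tissue contrasts used all 20 libraries with a group. Exact permutation tests used the difference of mean log2 values. edgeR 4.0.16 and DESeq2 1.42.0 were run on recovered reads as alternatives. The limma step was tested on simulated counts with the same built-in dispersion for every ID. That setting lacks the wide spread of Ttr within groups, so it does not bear on the Ttr results. Fold changes on this scale understate changes of low genes.

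Ttr, the lists and the tests were chosen with earlier results of these data known. The set of 23 IDs and its alternatives were chosen after seeing the data. Of 79 symbols in 9 lists, 77 were in the reference table of 47357 genes (assembly GRCr8), which gives an Ensembl ID for 0 of them. The rule for named genes, which took the 10 genes most like Ttr, therefore fell back on the 2 IDs most like it and the 2 most opposite. The labels describe separate rats within a group but do not tie replicate numbers to rats. Deviations of same-numbered libraries correlated at 0.114 to 0.333 in 3 pairs for hippocampus at 24 h against control, which are different rats. In every other comparison with 3 or more pairs at least 1 pair lay below 0.1. For Ttr in hippocampus, counting error alone is small beside the spread between libraries.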

Additional observations from a re-analysis of the deposited data

Results flagged for a closer look

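The library with conflicting tissue labels, which entered no comparison, had a Ttr level of 1456, above all 8 control libraries of both tissues (932 at most). ENSRNOG00000019902, the ID most like Ttr, had 37.2 in that library, also above all controls (12.9 at most). Ttr and the 4 IDs most like or opposite to it were each tested in the controls of both tissues for a library far from the others. Of these 10 tests 2 found one, and chance gives about 1 in 20 for a single test. The 10 tests share the same 8 libraries, and 4 of the IDs were chosen by their r with Ttr. That rate is therefore no measure for the count of 2. ENSRNOG00000019902 had 11.1 in hippocampus control 3, below the 12.7 to 12.9 of the other hippocampus controls. Each read counts for 0.926 in hippocampus control 3 and for 4.32 in hippocampus control 1, so this gap rests on few reads. ENSRNOG00000016412 had 1937 in cortex control 2, above the 1425 to 1453 of the other cortex controls. Ttr itself was not among them: the gap of hippocampus control 1 to the next was 0.826 of the range of its group, just under the limit of 0.829. These tests used normalized read counts, not log2 values. In log2(value + 1) the hippocampus controls had 9.87, 7.49, 4.98 and 4.33 in replicates 1 to 4. No such test was made on that scale.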

How the results depend on the processing

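Ttr passed the threshold for hippocampus against cortex at 48 h, with a log2 difference of 6.65. It kept this call with TMM scaling, quantile normalization and edgeR (limma or edgeR adjusted p 0.0368 to 0.0485), though the log2 difference was 9.62 in edgeR. The call also held without the 5 doubted libraries (limma adjusted p = 0.00717). None of the 5 is a 48 h library, so the difference stayed at 6.65 and this setting is no check of it. Ttr lost the call at the same log2 difference of 6.65 with no filter, no intensity trend, the 2 groups alone in the fit or a replicate block (limma adjusted p = 0.0679 with the block). With a pseudocount of 0.1 the call was lost at 6.73. With 1 library left out the difference was 4.21 to 8.27, never past the threshold. The other 10 comparisons were not called under any alternative. Some changed sign. Without the 5 doubted libraries the log2 change was -0.97 for cortex at 24 h against control, 0.087 for cortex at 48 h against 24 h and -0.75 for hippocampus against cortex in controls. edgeR gave 2.52 for cortex at 24 h against control, -2.95 for cortex at 48 h against 24 h, 4 for hippocampus at 48 h against 24 h, 2.73 for hippocampus against cortex in controls and -0.0682 for the tissue difference of the 24 h response. With 1 library left out the values were -0.87 to 1.64 for cortex at 24 h, -1.27 to 0.081 for cortex at 48 h, -2.42 to 0.087 for cortex at 48 h against 24 h, -0.0637 to 3.996 for hippocampus at 48 h against 24 h and -0.202 to 2.998 for the tissue difference of the 24 h response. The replicate block changed no other call. With a minimum of 50 in place of 200, 42 IDs stood out in hippocampus 48 h replicate 3 in place of 23, and with at least 8-fold 16 did. DESeq2 gave Ttr no adjusted p in any of the 11 comparisons, so it gives no value here. The cause of these changes was not tested. The doubted libraries were hippocampus controls 1 and 2, hippocampus 24 h replicate 2, cortex control 3 and cortex 24 h replicate 3. Hippocampus control 1 had few reads, and the others lay off their own end of the tissue scale. They include the highest Ttr level of control hippocampus (932), of hippocampus at 24 h (3961) and of cortex at 24 h (628). Leaving them out therefore also takes away high Ttr levels, and is no independent check. Depth limits the low Ttr levels most. Cortex 48 h replicate 3 had 6 Ttr reads, hippocampus control 4 had 21, and cortex 24 h replicates 2 and 4 had 23 each. Hippocampus control 1 had few reads in genes but 216 of Ttr.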
